A study of Mus musculus with 45 samples.

Results

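Pancreatic islets of female NZO/HlLtJ mice were compared between a diet with 44% fat and a diet with 10% fat, both with added fiber. These are 8 of the 45 libraries of the series, chosen by strain, sex and diet as the labels give them, with 4 libraries on each diet. Per the labels, all 8 were wild type, received no other treatment, and came from mice that started the control or the high fat, high sugar diet at 6 weeks of age and were collected at 16 weeks. The other libraries came from NZO/HlLtJ males (6 libraries) and from C57BL/6J and CAST/EiJ mice of both sexes on the same diets. Polyadenylated RNA of whole islets was sequenced with 150 bp paired reads. Whether the libraries of a group are different mice is not stated in the labels. A p-value here reflects only how far libraries spread within groups, estimated over all 12 groups of the series and not these 2 alone. That spread may be technical. The series title states that the study asks how genotype and diet together set susceptibility to type 2 diabetes.

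NZO/HlLtJ, the New Zealand Obese strain, is an inbred strain with polygenic obesity, and its males often become diabetic. Islets hold beta cells, which make insulin, and alpha, delta, gamma and epsilon cells, which make glucagon, somatostatin, pancreatic polypeptide and ghrelin. Beta cells fold and cut large amounts of proinsulin in the endoplasmic reticulum (ER) and in secretory granules. When the load on the ER rises, sensors raise chaperones through ATF6 and XBP1 and, in a separate branch, translation control and amino acid genes through ATF4 and CHOP. Mature beta cells seldom divide, and obesity without diabetes is known to go with beta cell division and larger islets in mice.

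Total estimated counts in the 8 libraries were 71.5 to 110 M. Levels below are counts per 1000000 (CPM) with composition factors (TMM) and are given in the order replicate 1 to 4, a numbering that follows the order of the series and pairs nothing. The islet hormones were high in all 8 libraries, with Ins2 at 57940 to 98030 CPM and Gcg at 10870 to 20800 CPM. Xist was at 531.3 to 1075 CPM and the Y-linked Ddx3y at 0.0186 CPM or less. Transcripts that mark C57BL/6J (9 genes) or CAST/EiJ (21 genes) were at a median of 0.189% or less of their level in those strains. The markers had a median of at least 5 CPM in that strain and under 0.1 CPM over the NZO/HlLtJ libraries, these 8 included. Low values are thus partly set by that choice, and the check can only show libraries that deviate from most of their strain. Acinar genes of the exocrine pancreas took 2.82, 9.53, 2.96 and 2.08% of counts on 10% fat and 7.40, 3.92, 7.21 and 10.1% on 44% fat. Sample codes begin with 76 in replicates 1 and 2 of either diet, with 80 in replicates 3 and 4 on 10% fat and with 89 in replicates 3 and 4 on 44% fat. The labels do not explain these code series. Within these 8 libraries the effects of diet and of series 80 against 89 cannot be told apart. Over the genes called below, replicate 1 on 44% fat lay nearer to the 10% libraries than the other replicates on 44% fat. Its median log2 shift was 0.43 over the genes called higher, against 0.65 to 0.67, and its median was -0.27 over those called lower, against -0.47 to -0.50.

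In all, 20306 genes were tested with edgeR's quasi-likelihood test in a model of all 12 groups of strain, sex and diet. A gene is called at a Benjamini-Hochberg adjusted p under 0.05, and each adjusted p below is from this test. On 44% fat 1692 genes were higher (8.33% of those tested) and 1507 were lower (7.42%), together 15.8%. The 2 groups of 4 libraries did not overlap in 3720 genes (18.3%). At least 2-fold changes made up 783 of the higher and 181 of the lower calls. The median log2 change of all genes was -0.01. Scaling by library totals alone moved that median to -0.22 and gave 447 higher and 758 lower calls, so changes are read relative to the median. Without replicate 3 on 10% fat 2108 genes were called, and without any other single library of the 8 between 2156 and 3676 were. Whole islets were measured in bulk, so fewer cells of a type and less RNA per cell cannot be told apart. Lists of genes for cell types and processes are described by how many tested members were called, beside these 2 shares for all genes.

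**Figure D1:**
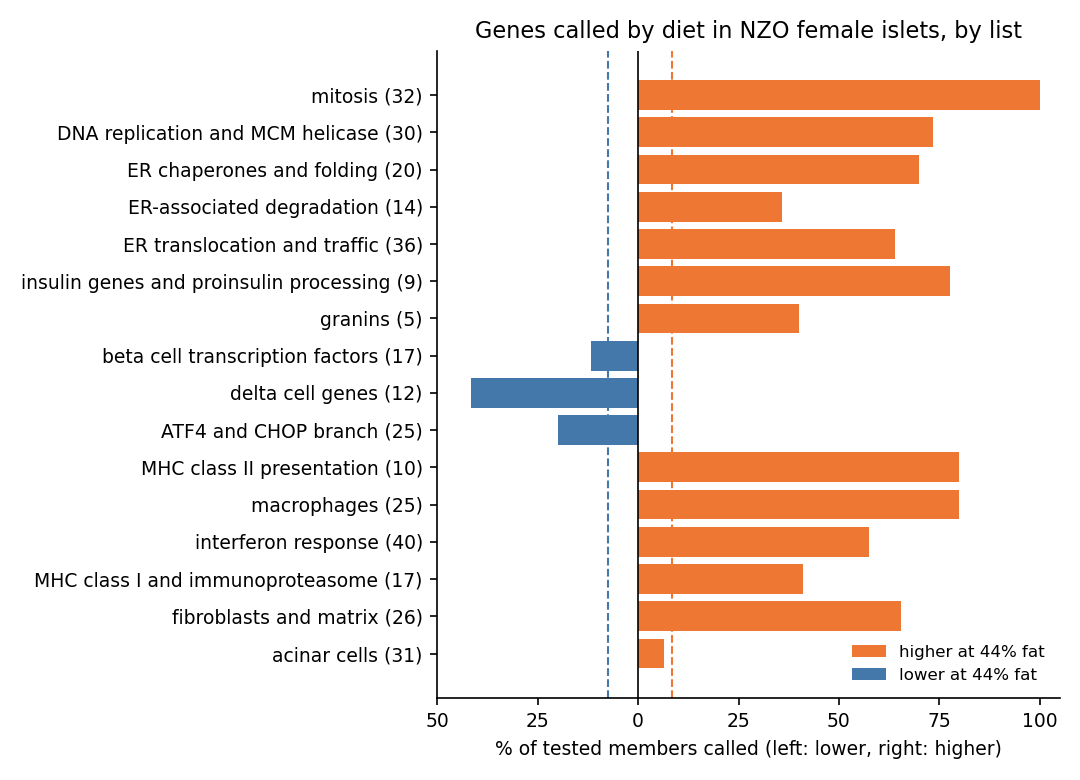
Share of the tested members of 16 gene lists called higher (right) or lower (left) on 44% fat in NZO/HlLtJ females, in percent, with the dashed lines at 8.33% and 7.42% for all genes. All 32 tested mitosis genes and 20 of 25 macrophage genes were higher, while the beta cell transcription factor, delta cell and ATF4 lists had lower calls only. For the transcription factors these were 2 of 17, near the line for all genes.

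Changes of the largest size were in genes of pancreatic trypsinogens and of secreted or membrane proteins at low levels. By the rule of the 10 greatest rises with a mean of at least 1 CPM and no overlap, 6 were trypsinogens or trypsinogen-like genes at chr6:40964754-41463786 (GRCm38), which are described with the exocrine genes. The other four were Csn3, Tm4sf20, Slc5a10 and Ros1. Ros1, a receptor tyrosine kinase, was at 0.272, 0.436, 0.206 and 0.225 CPM on 10% fat and at 1.04, 7.60, 11.3 and 4.35 CPM on 44% fat. All 4 libraries on 44% fat exceeded those on 10% fat, with replicate 1 lowest (log2 change 4.40 ± 0.59 SE, adjusted p = 1.08e-05). Csn3, a casein, changed by 5.93, Tm4sf20, a tetraspan membrane protein, by 5.61 and Slc5a10, a sugar transporter, by 5.42 on the log2 scale, and in each replicate 1 on 44% fat was at 0.272 to 0.465 CPM while the others were at 1.08 to 10.4 CPM. Among the 10 greatest falls were Areg, which encodes the growth factor amphiregulin, Grid2ip, the ion channels Mcoln3, Chrna4 and Kcnj12, and Pcp4, a calmodulin regulator. Grid2ip, a synaptic scaffold protein, was at 3.78, 6.44, 6.19 and 3.98 CPM on 10% fat and at 1.42, 0.432, 0.324 and 0.264 CPM on 44% fat (log2 change -3.05 ± 0.44 SE, adjusted p = 2.01e-05). Kcnj12, an inward rectifier potassium channel, was at 9.11, 9.97, 13.2 and 9.85 CPM against 5.67, 1.2, 1.39 and 1.84 CPM (-2.05 ± 0.38 SE, adjusted p = 0.000291). Replicate 1 on 44% fat was the highest of its group in both. The fall of Areg (-3.23) was not called without replicate 3 on 10% fat, which held 10.8 CPM against 1.90 to 2.46 CPM in the others (adjusted p = 0.0752). The other falls of the 10 were Fam196a (-2.50), Gm43398 (-2.45), Olfr330 (-2.44) and Gm27000 (-2.17). The call of Gm27000 was lost without any library but replicate 3 on 44% fat, at adjusted p of 0.0504 to 0.114.

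Genes of the insulin granule were higher on 44% fat. Of 9 tested genes for insulin and the enzymes and helpers that cut and amidate prohormones, 7 rose, none fell and the median log2 change was 0.57. Chgb, which encodes chromogranin B, an acidic protein that packs hormones into granules, had the clearest change. Chgb (chr2:132781278-132795079) was at 1881, 1819, 2552 and 2209 CPM on 10% fat and at 2599, 7034, 6204 and 6141 CPM on 44% fat. The groups did not overlap, although replicate 1 on 44% fat was close to replicate 3 on 10% fat (log2 change 1.38 ± 0.25 SE, adjusted p = 0.000233). Vgf, a granin whose peptides are secreted with insulin, was at 119, 125, 113 and 123 CPM against 166, 373, 334 and 210 CPM (1.17 ± 0.25 SE, adjusted p = 0.00156). Chga, the granin chromogranin A, was at 11540 to 16130 CPM against 13250 to 20530 CPM and was not called (0.15 ± 0.17 SE, adjusted p = 0.585). The 2 granin calls became 4 of 5 without replicate 1 on 44% fat.

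Pcsk1, the prohormone convertase that makes the first cut in proinsulin, was at 496, 411, 466 and 504 CPM on 10% fat and at 579, 983, 755 and 690 CPM on 44% fat (0.68 ± 0.17 SE, adjusted p = 0.00575). Every library on 44% fat was above every library on 10% fat. Pcsk2, the second convertase, rose by 0.59 on the log2 scale, Cpe, which trims the cut ends, by 0.66, and Pam, which amidates peptides, by 0.57. Ins1 was at 33470, 28090, 31740 and 41090 CPM against 40190, 54850, 50300 and 59370 CPM (0.61 ± 0.19 SE, adjusted p = 0.0236). The groups overlapped by 1 pair of libraries, and the call was lost without replicate 2 or 3 on 10% fat or replicate 2 or 4 on 44% fat (adjusted p 0.0634 to 0.087). Ins2 was at 64830, 57940, 61550 and 76460 CPM against 69250, 90360, 81190 and 98030 CPM and was not called (0.38 ± 0.18 SE, adjusted p = 0.138). Iapp, the islet amyloid peptide secreted with insulin, was called at 0.51 (adjusted p = 0.0344) and only without replicate 4 on 10% fat or replicate 1 on 44% fat did the call hold. Over Ins1 and Ins2 together, insulin took 10.6 ± 1.66% of counts on 10% fat and 12.4 ± 1.18% on 44% fat (SD, n = 4). Leaving out replicate 2 or 3 on 10% fat, or replicate 2 or 4 on 44% fat, left 4 of the 7 calls, and library totals left 0.

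ER chaperones, which fold proteins and form their disulphide bonds, rose together: 14 of 20 tested were higher, none was lower, and the median log2 change was 0.75. The 4 promoters below are of the chaperone genes Creld2, Hspa5 and Hsp90b1 and of Derl3, an ER-associated degradation gene, each called higher. They are printed 5′ to 3′ in the direction of the gene, from RefSeq on GRCm38.p6, with the letters of the ER stress response element in capitals. The element was searched on both strands as CCAAT, 9 bases of any kind, and CCACG. It was found within 250 bases before to 50 after the start in 7 of the 17 chaperone genes with such a window (41.2%). It was in 2 of 10 ER-associated degradation genes and in 0 of 27 ER traffic genes, against 37 of 27025 genes (0.137%). Motif shares, here and below, count list members whether called or not. They describe the lists as chosen, and are no test of the diet changes.

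Creld2 (chr15:88819476-88819595, plus strand, 170 to 51 bases before the start): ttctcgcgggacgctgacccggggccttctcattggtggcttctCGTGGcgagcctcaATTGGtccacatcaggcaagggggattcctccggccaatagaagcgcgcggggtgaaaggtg
Derl3 (chr10:75893198-75893317, plus strand, 200 to 81 bases before the start): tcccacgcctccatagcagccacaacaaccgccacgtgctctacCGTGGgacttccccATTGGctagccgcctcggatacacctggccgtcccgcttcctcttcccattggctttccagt
Hspa5 (chr2:34771970-34772089, plus strand, 120 to 1 bases before the start): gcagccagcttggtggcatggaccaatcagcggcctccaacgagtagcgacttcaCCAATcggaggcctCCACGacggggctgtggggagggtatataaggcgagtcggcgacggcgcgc
Hsp90b1 (chr10:86705515-86705664, minus strand, 220 to 71 bases before the start): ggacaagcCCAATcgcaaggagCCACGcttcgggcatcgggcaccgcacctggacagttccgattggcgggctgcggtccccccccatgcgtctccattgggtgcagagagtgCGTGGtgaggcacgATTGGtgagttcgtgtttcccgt

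Creld2 and Derl3 hold the element on the opposite strand, Hspa5 holds it in the gene's direction, and Hsp90b1 holds it once each way. Derl3, which helps move misfolded proteins out of the ER, was at 13.7, 12.2, 10.3 and 18.2 CPM on 10% fat and at 44.8, 101, 74.2 and 66.5 CPM on 44% fat (log2 change 2.40 ± 0.36 SE, adjusted p = 3.97e-05). Even the lowest library on 44% fat was above the highest on 10% fat. Creld2, a disulphide isomerase of the ER, was at 132, 92.5, 62.7 and 155 CPM against 227, 573, 335 and 262 CPM (1.66 ± 0.32 SE, adjusted p = 0.000616). Hspa5, the chaperone BiP, was at 2688, 2207, 1354 and 2828 CPM against 3020, 6262, 3456 and 3644 CPM (0.85 ± 0.23 SE, adjusted p = 0.011). The 2 Hspa5 groups did not overlap, but the call was lost without replicate 3 on 10% fat or replicate 2 on 44% fat (adjusted p 0.0653 and 0.105). Hsp90b1, the chaperone GRP94, was at 1737, 1473, 1467 and 1806 CPM against 2290, 3911, 2667 and 2213 CPM (0.77 ± 0.17 SE, adjusted p = 0.00185). Pdia6 (1.05) and P4hb (0.86), which are disulphide isomerases, Fkbp2 (0.84), a prolyl isomerase, and Sdf2l1 (1.19), a cofactor of BiP, rose as well.

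Of 36 tested genes for entry into the ER, signal peptide removal and transport to the Golgi, 23 rose and none fell, with a median of 0.47. Sec11c, the catalytic part of signal peptidase, was at 98.5, 102, 87.7 and 99.6 CPM against 159, 286, 254 and 241 CPM (1.28 ± 0.20 SE, adjusted p = 6.06e-05). Ssr4, of the translocon-associated complex, rose by 1.03 and Spcs1, another part of signal peptidase, by 0.92 (adjusted p = 6.98e-05 and 0.000102). Kdelr3, a receptor that returns chaperones to the ER, was at 12, 10.2, 6.99 and 13.2 CPM against 15.8, 61.0, 37.3 and 31.6 CPM (1.78 ± 0.33 SE, adjusted p = 0.000345). In each of these the groups were apart, with replicate 2 on 44% fat highest. The 23 calls became 11 without replicate 2 on 10% fat, 10 without replicate 3 on 10% fat and 8 without replicate 2 on 44% fat, and library totals left 5. Of 14 ER-associated degradation genes, which clear misfolded proteins, 5 rose and none fell (median 0.37). Beside Derl3 they included Edem2 (1.04), Erlec1 (0.78) and Os9 (0.71), lectins and enzymes that recognise the sugars of such proteins. The XBP1 core motif ACGTGG, searched on both strands, was in 11 of 27 traffic genes (40.7%), 4 of 10 degradation genes (40%) and 6 of 17 chaperone genes (35.3%), against 9.40% of 27025 genes.

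The summed level of the chaperone list was 14050, 11760, 9552 and 14870 CPM on 10% fat and 17100, 29010, 19980 and 18130 CPM on 44% fat. Acinar transcripts took 2.82, 9.53, 2.96 and 2.08% of counts in the former and 7.40, 3.92, 7.21 and 10.1% in the latter, and their part in the chaperone values was not tested. With library totals 4 of the 14 chaperone calls remained and in code series 76 alone 5 were called, where 1.42% of all genes were higher and 0.63% lower.

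The sensors and the ATF4 branch did not share this rise. None of 11 tested sensor and transducer genes was called in either direction (median 0.04), and Xbp1, whose transcript is spliced on ER stress, was at 243 to 321 CPM against 291 to 336 CPM (0.13 ± 0.14 SE, adjusted p = 0.568). Of 25 tested targets of ATF4 and CHOP, 5 fell and none rose, with a median of -0.37. The C/EBP-ATF response element TTGCATCA, searched on both strands, was in 6 of the 22 with a window (27.3%), against 1.03% of all genes. Atf5, a transcription factor of this branch, was at 257, 320, 327 and 237 CPM on 10% fat and at 160, 108, 106 and 142 CPM on 44% fat (-1.15 ± 0.19 SE, adjusted p = 8.44e-05). Its groups were far apart, with replicate 1 again the nearest of the 44% libraries. Vldlr, a lipoprotein receptor, fell by 0.85, and Sesn2, a sensor of leucine, fell by 0.75 on the log2 scale (adjusted p = 0.00037 and 0.000844). Ddit3, which encodes CHOP itself, was at 21.6, 18.2, 34.8 and 19.1 CPM against 11.3, 18.9, 13.2 and 24.7 CPM and was not called (-0.46 ± 0.25 SE, adjusted p = 0.204). Atf4 was not called either (-0.23). Without replicate 3 on 10% fat, which held the most Ddit3, 3 of the 5 calls remained, since Cebpg (-0.46) and the kinase-like Trib3 (-1.39) were lost (adjusted p = 0.052 and 0.159). With library totals 10 were called lower.

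Genes of cell division rose without exception among the 32 tested mitosis genes, and the 2 groups did not overlap in any of them (median 1.75). Which cells of the islets held these transcripts cannot be told from bulk RNA. The 4 promoters below are of 3 mitosis genes and 1 replication gene. Capitals mark the cell cycle homology region TTTGAA and the CCAAT box in the mitosis genes, and the E2F site form TTTGGCGC in Mcm6, each searched on both strands.

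Cdk1 (chr10:69352913-69353012, minus strand, 100 to 1 bases before the start): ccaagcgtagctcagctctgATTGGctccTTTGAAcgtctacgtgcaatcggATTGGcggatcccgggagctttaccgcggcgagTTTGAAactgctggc
Cdc20 (chr4:118437344-118437443, minus strand, 100 to 1 bases before the start): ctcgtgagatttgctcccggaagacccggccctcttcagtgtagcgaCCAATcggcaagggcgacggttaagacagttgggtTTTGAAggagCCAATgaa
Ube2c (chr2:164769829-164769928, plus strand, 100 to 1 bases before the start): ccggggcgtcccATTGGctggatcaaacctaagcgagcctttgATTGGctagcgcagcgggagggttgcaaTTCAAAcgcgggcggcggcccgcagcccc
Mcm6 (chr1:128359726-128359825, minus strand, 120 to 21 bases before the start): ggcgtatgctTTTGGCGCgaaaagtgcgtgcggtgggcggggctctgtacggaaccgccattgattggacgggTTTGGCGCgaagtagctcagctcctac

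TTTGAA was present in 20 of the 27 mitosis genes with a window (74.1%), against 20.2% of all genes, and CCAAT in 20 of 27 (74.1%) against 41.1%. TTTGGCGC was in 5 of 25 replication genes (20%), against 0.585%. Cdk1, the kinase that starts mitosis, was at 1.81, 1.40, 0.678 and 1.58 CPM on 10% fat and at 3.74, 9.11, 4.13 and 4.93 CPM on 44% fat (log2 change 2.00 ± 0.33 SE, adjusted p = 7.78e-05). Cdc20, which activates the complex that ends mitosis, was at 1.57, 2.14, 0.717 and 2.10 CPM against 3.66, 10.7, 4.98 and 7.04 CPM (2.01 ± 0.32 SE, adjusted p = 6.72e-05). Ube2c, an enzyme of that complex, was at 1.21, 1.32, 0.599 and 1.37 CPM against 3.21, 10.0, 4.88 and 5.11 CPM (2.36 ± 0.38 SE, adjusted p = 7.25e-05). In each, replicate 3 was the lowest of the 10% libraries and replicate 2 the highest of the 44% libraries. Mki67, the proliferation marker Ki-67, was at 11.3, 9.50, 5.19 and 14 CPM against 33.7, 60.7, 30.2 and 32.7 CPM (1.98 ± 0.30 SE, adjusted p = 3.83e-05). The remaining mitosis genes included Kif11, a spindle motor (1.52, adjusted p = 8.02e-06), Ccna2, a cyclin (1.78), and Prc1, which bundles spindle microtubules (1.82). In code series 76 alone 24 of the 32 were called higher, and with library totals 28.

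Of 30 tested genes for DNA replication, 22 rose and none fell (median 0.71). Rrm2, a subunit of the enzyme that makes deoxynucleotides, was at 5.21, 4.86, 4.35 and 5.83 CPM on 10% fat and at 10.8, 17.4, 14.5 and 11.6 CPM on 44% fat (1.42 ± 0.17 SE, adjusted p = 3.16e-06). The lowest library on 44% fat was well above the highest on 10% fat. Uhrf1, which couples DNA methylation to replication, rose by 2.04 and Mcm5, of the replicative helicase, by 1.42. Mcm6 was at 12.5, 11.3, 11.5 and 13.2 CPM against 20.6, 18.4, 18.7 and 15.7 CPM (0.60 ± 0.13 SE, adjusted p = 0.00189). Library totals left 9 of the replication calls. Among 23 cyclins, kinases, inhibitors and E2F factors, 7 rose, led by E2f7 (1.39), E2f8 (1.68), E2f2 (1.01) and E2f1 (0.72), all of which act in the switch to DNA synthesis. The 3 falls were small: Cdkn1b, the inhibitor p27, fell by 0.34, Rb1, the retinoblastoma protein, by 0.30 and Cdk4 by 0.18. The falls were 1 without replicate 1, 2 or 3 on 10% fat or replicate 2 on 44% fat, and 0 without replicate 3 on 44% fat. Ccnd1 was at 112, 84.2, 45.8 and 99.0 CPM against 93.7, 199.6, 95.3 and 90.3 CPM (0.49 ± 0.23 SE, adjusted p = 0.138), and Ccnd2, the main D cyclin of beta cells, at 1509 to 1666 CPM against 988 to 1561 CPM (-0.32 ± 0.16 SE, adjusted p = 0.171).

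**Figure D2:**
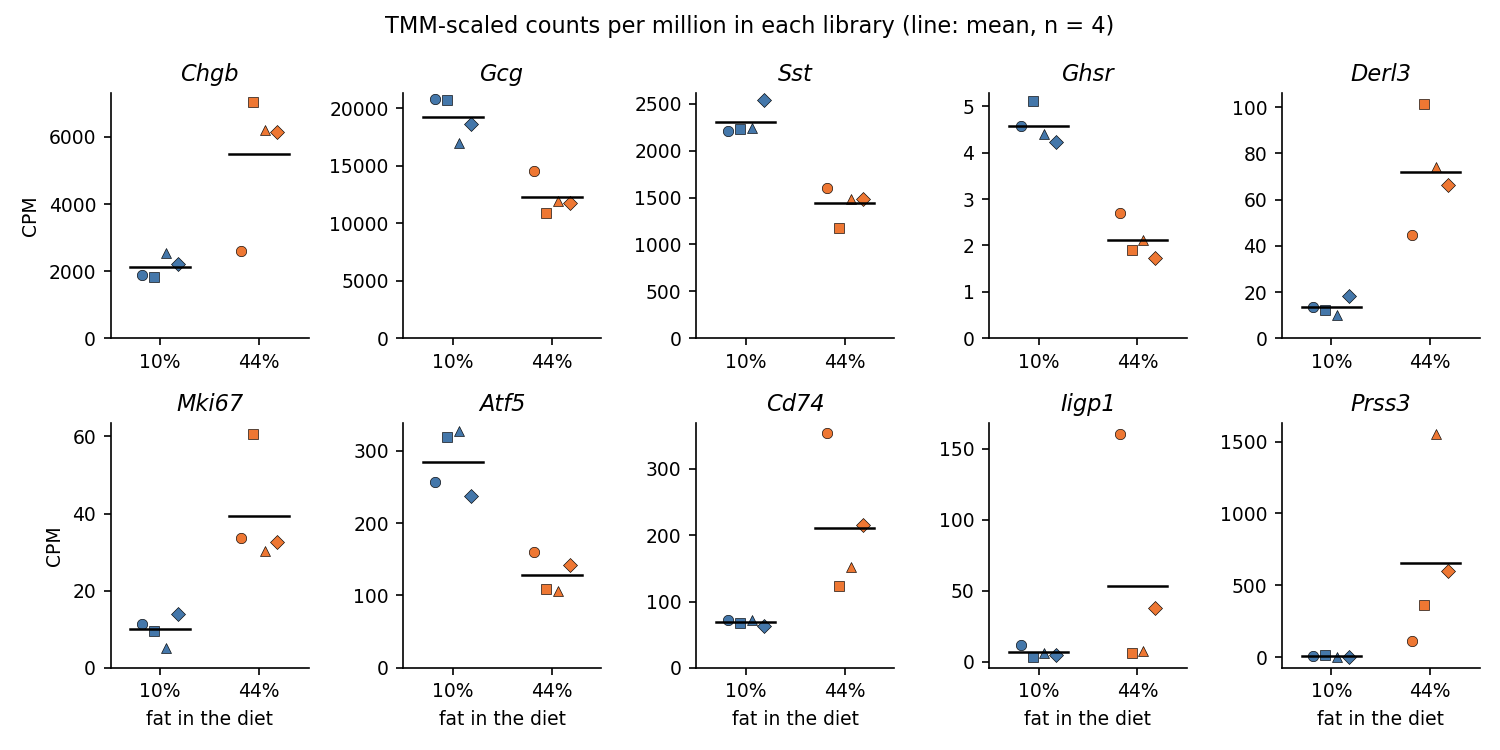
TMM-scaled CPM of 10 genes in each of the 8 libraries (circle, square, triangle and diamond are replicates 1 to 4; line: mean of 4), on linear axes. Chgb, Derl3, Mki67 and Prss3 are higher and Sst, Ghsr and Atf5 lower in all 4 libraries on 44% fat, while Iigp1 is high only in replicates 1 and 4.

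Most genes that define beta cells were not called, and the 2 calls among their transcription factors lay near the share of all genes called lower. Of 17 tested beta cell transcription factors 2 fell and none rose (median -0.24), where 7.42% of all genes were called lower. Only 1 of the 17 had a log2 change above 0, where the median of all genes was -0.01. Isl1 was at 64.2, 62.4, 66.2 and 61.0 CPM on 10% fat and at 49.3, 44.8, 36.7 and 48.4 CPM on 44% fat (-0.50 ± 0.14 SE, adjusted p = 0.0131), and Pax6 at 158 to 169 CPM against 112 to 142 CPM (-0.38 ± 0.12 SE, adjusted p = 0.0268). The groups were apart in both, and both factors are shared with other islet cells. The call of Isl1 was lost without replicate 3 on 44% fat (adjusted p = 0.0679), and that of Pax6 without replicate 2 or 3 of either diet (0.0577 to 0.0998). Pdx1 (-0.11), Nkx6-1 (-0.35) and Mafa (-0.11) were not called. Mafa, an activator of the insulin genes, spread from 66.7 to 166 CPM over both diets. Of 12 genes of beta cell maturity and signalling receptors, 2 rose and 2 fell. Ero1lb, an oxidase for disulphide bonds in proinsulin, was at 3077, 2076, 1969 and 3078 CPM against 3960, 5611, 3912 and 4033 CPM (0.78 ± 0.21 SE, adjusted p = 0.00889), and Adra2a, an adrenaline receptor that curbs insulin release, rose by 0.58. Slc30a8, which loads granules with zinc, fell by 0.51, and Trpm5, a cation channel, fell by 0.70 on the log2 scale. Each of these 4 calls depended on single libraries: that of Ero1lb was lost without replicate 2 on 44% fat (adjusted p = 0.0528), that of Adra2a without replicate 1 or 2 on 10% fat or 2 or 4 on 44% fat (0.0557 to 0.0789), and that of Trpm5 without replicate 2 on 10% fat or 2 or 3 on 44% fat (0.0588 to 0.0766). That of Slc30a8 held only without replicate 4 on 10% fat or replicate 1 on 44% fat (otherwise 0.0541 to 0.129). Ucn3, a peptide of mature beta cells, was at 272, 238, 275 and 326 CPM against 249, 200, 163 and 241 CPM (-0.38 ± 0.22 SE, adjusted p = 0.25). Slc2a2, the glucose transporter GLUT2, was at 501 to 638 CPM against 269 to 530 CPM (-0.48 ± 0.23 SE, adjusted p = 0.141).

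Genes that sense glucose and release granules were mixed. Of 16 genes of glucose uptake, sensing and ion channels 3 fell and 1 rose (median -0.07). Pcx, pyruvate carboxylase, which feeds pyruvate into beta cell mitochondria, was at 134, 144, 138 and 166 CPM on 10% fat and at 127, 76, 79.3 and 56.0 CPM on 44% fat (-0.78 ± 0.21 SE, adjusted p = 0.00888). Its groups did not overlap, with replicate 1 on 44% fat just below the 10% group. The fall of the calcium channel Cacna1d (-0.49) was lost without replicate 3 or 4 on 10% fat or 2 or 4 on 44% fat (adjusted p up to 0.147). Of 22 genes of exocytosis 5 fell and 2 rose (median 0.02, and -0.20 with library totals). The falls were 3 without replicate 2, 3 or 4 on 10% fat or replicate 3 on 44% fat and 2 without replicate 2 on 44% fat. Rims2, a scaffold for docked granules, was at 38.5, 38.7, 40.5 and 40.7 CPM against 33.2, 29.4, 29.0 and 27.2 CPM (-0.42 ± 0.10 SE, adjusted p = 0.00272). Ptprn, the granule membrane protein IA-2, was at 589, 603, 505 and 654 CPM against 851, 1517, 1314 and 910 CPM (0.97 ± 0.18 SE, adjusted p = 0.000262). Both genes separated the diets in opposite directions. Of 20 insulin and IGF signalling genes 2 rose and 3 fell, with Igfbp5, an IGF binding protein, rising by 0.80 (adjusted p = 0.0082). These falls were 0 without replicate 3 on 10% fat and 1 without replicate 2 or 3 on 44% fat, and the rises were 1 without replicate 1 on 10% fat or replicate 2 on 44% fat.

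Of 11 tested markers of dedifferentiated or progenitor-like islet cells, 4 rose and 2 fell (median 0.17, and -0.02 with library totals). Aldh1a3, an enzyme of retinoic acid synthesis often taken to mark failing beta cells, was at 60.5, 58.1, 24.3 and 55.7 CPM on 10% fat and at 102, 240, 176 and 135 CPM on 44% fat (1.72 ± 0.31 SE, adjusted p = 0.000278). Each library on 44% fat was above those on 10% fat, and replicate 3 was low in the 10% group. Cck, which encodes the peptide cholecystokinin, was at 0.706, 0.696, 0.501 and 0.966 CPM against 2.05, 19.5, 16.2 and 10.3 CPM (4.06 ± 0.69 SE, adjusted p = 0.000151). Gast, which encodes gastrin, rose by 3.01, although replicate 1 on 44% fat (0.250 CPM) was below one library on 10% fat (0.272 CPM). Of 25 genes that mature beta cells normally keep low, 3 rose and 1 fell (median 0.49). That count was 8 higher without replicate 2 on 44% fat, 1 without replicate 3 on 44% fat and 8 with DESeq2.

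In the other endocrine cells, delta cell genes fell and the alpha cell list split. Sst, which encodes somatostatin, was at 2207, 2227, 2239 and 2542 CPM on 10% fat and at 1606, 1176, 1486 and 1483 CPM on 44% fat (-0.68 ± 0.16 SE, adjusted p = 0.00336). No library on 44% fat reached the lowest on 10% fat. Of 12 tested delta cell genes 5 fell and none rose (median -0.26), with Ghsr, the ghrelin receptor, falling by 1.11 and Rbp4, a retinol carrier, by 0.64 on the log2 scale. Without replicate 2 on 44% fat 2 falls were called, and Rbp4 was lost (adjusted p = 0.0648). Gcg, the glucagon gene, was at 20800, 20700, 16950 and 18630 CPM against 14590, 10870, 11950 and 11810 CPM. Its groups did not overlap, but its adjusted p of 0.0506 was just above the threshold (-0.65 ± 0.23 SE).

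Over the alpha cell list 5 of 15 tested genes fell and 4 rose (median -0.51), and the groups were apart in 13. Among the falls were Irx2 (-0.66), a transcription factor, Slc7a2 (-0.55), an arginine transporter, and Smarca1 (-0.55), a chromatin remodeller. The falls were 2 without replicate 3 on 10% fat and 3 without replicate 2 on 44% fat. Irx2 was lost without any of replicates 3 and 4 on 10% fat and 2 to 4 on 44% fat, Smarca1 without replicate 3 on 10% fat or 2 on 44% fat, and Slc7a2 without replicate 3 on 10% fat (adjusted p 0.0517 to 0.0795). The rises were Ttr, a thyroid hormone carrier (1.54), Gc, the vitamin D binding protein (1.2), Loxl4 (1.93) and Dpp4 (0.48), a peptidase that cuts incretins, the last lost without replicate 3 or 4 on 10% fat or 2 on 44% fat (adjusted p up to 0.139). Ttr was at 838, 872, 741 and 759 CPM against 1021, 3566, 2595 and 2180 CPM. Ppy, which encodes pancreatic polypeptide, was at 3020, 2030, 1530 and 1699 CPM against 834.2, 1077, 1234 and 1336 CPM (-0.89 ± 0.54 SE, adjusted p = 0.275), and 1 of 6 gamma and epsilon cell genes fell. Acinar transcripts took a larger share of counts in all 4 libraries on 44% fat (3.92 to 10.1%) than in 3 of the 4 on 10% fat (2.08 to 2.96%), and their part in these lower values was not tested.

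Macrophage genes were higher on 44% fat. Of 25 tested 20 rose, none fell, and the groups did not overlap in 22 (median 1.49). C1qa, a part of complement C1q made by tissue macrophages, was at 25.8, 28.7, 26.5 and 29.99 CPM on 10% fat and at 52.6, 88.8, 81.2 and 88.8 CPM on 44% fat (1.49 ± 0.20 SE, adjusted p = 1.33e-05). The 10% libraries lay close together, and the lowest 44% library was well above them. C1qb (1.65), C1qc (1.64), Fcgr3, an antibody receptor (1.68), and Adgre1, which encodes F4/80 (1.58), rose likewise. The summed level of the list was 298.4 to 316.2 CPM against 663.2, 431.8, 640.7 and 693.4 CPM. Library totals left 12 of the 20 calls.

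MHC class II genes, which present antigen on macrophages, dendritic cells and B cells, rose in 8 of 10 tested (median 1.58). Cd74, the invariant chain, was at 72.2, 68.1, 72.4 and 62.9 CPM against 355, 124, 152 and 216 CPM (1.62 ± 0.29 SE, adjusted p = 0.000247). Replicate 1 on 44% fat was the highest, and no library on 44% fat overlapped the 10% group. H2-DMb1, which loads peptides, rose by 1.87 and Ciita, the master activator of the class, by 2.07. Lymphocyte and plasma cell genes summed to 8.50, 11.6, 12.9 or 16.01 CPM in the 10% libraries, and replicates 1 to 4 on 44% fat held 87.0, 18.8, 16.6 and 46.5 CPM. Of these 25 genes 2 were called, Ptprc (1.72) and Nkg7 (3.53), and 0 without replicate 2 or 4 on 10% fat or replicate 1 on 44% fat.

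Interferon response genes were higher in 2 of the 4 libraries on 44% fat. Of 40 tested, 23 were called higher and none lower (median 0.81), but the groups did not overlap in only 5. The list summed to 521.3, 417.0, 433.7 and 483.1 CPM in replicates 1 to 4 on 10% fat, against 1242, 361.8, 401.4 and 665.5 CPM on the other diet, so that replicates 1 and 4 were high and replicates 2 and 3 were below the 10% group. Without replicate 1 on 44% fat 7 were called higher and 1 lower. The core of the interferon-stimulated response element, GAAANNGAAA on either strand, was in 20 of the 30 members with a promoter window (66.7%), against 3.99% of all genes. The promoters of 2 members show it in capitals, in the gene's direction in Isg15 and on the opposite strand in Gbp2.

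Isg15 (chr4:156200849-156200918, minus strand, 100 to 31 bases before the start): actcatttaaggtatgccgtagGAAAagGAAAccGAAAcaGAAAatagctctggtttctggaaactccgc
Gbp2 (chr3:142620563-142620632, plus strand, 100 to 31 bases before the start): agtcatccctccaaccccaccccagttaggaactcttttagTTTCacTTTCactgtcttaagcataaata

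Isg15, a ubiquitin-like protein, was at 1.01, 0.798, 0.786 and 1.21 CPM on 10% fat and at 3.44, 1.12, 1.39 and 2.68 CPM on 44% fat (1.18 ± 0.32 SE, adjusted p = 0.0102). Gbp2, a guanylate-binding protein induced by interferon gamma, was at 9.77, 5.27, 6.87 and 6.21 CPM against 49.4, 6.45, 9.19 and 22.1 CPM (1.64 ± 0.38 SE, adjusted p = 0.00309). In both the groups overlapped, and both calls were lost without replicate 1 on 44% fat (adjusted p = 0.0612 and 0.0608). Iigp1, an interferon-gamma inducible GTPase, was at 11.9, 3.51, 6.02 and 4.82 CPM against 160, 6.08, 7.72 and 38.0 CPM (3.02 ± 0.66 SE, adjusted p = 0.00227). Oas3, a sensor of double-stranded RNA, rose by 2.94 and Zbp1 by 2.68, both below 5 CPM in every library. MHC class I genes followed the same libraries, with B2m, the shared light chain, at 83.5 to 114 CPM on 10% fat and at 461, 100, 109 and 235 CPM on 44% fat, a call (1.14) lost without replicate 1 (adjusted p = 0.129). Of 17 MHC class I and immunoproteasome genes 7 rose, 3 without replicate 1 and 11 without replicate 2 on 44% fat.

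Genes of fibroblasts and extracellular matrix rose in 17 of 26 tested, and none fell (median 0.94). Mgp, an inhibitor of calcification, was at 26.2, 23.2, 22.2 and 23.4 CPM on 10% fat and at 32.8, 57.4, 68.0 and 61.6 CPM on 44% fat (1.21 ± 0.24 SE, adjusted p = 0.00082). Tgfbi, a matrix protein induced by TGF-beta, was at 4.18, 4.38, 4.67 and 2.90 CPM against 16.5, 9.30, 14.1 and 15.9 CPM (1.79 ± 0.38 SE, adjusted p = 0.00146). Neither gene overlapped between the diets. The collagens Col5a2 (1.13) and Col6a3 (0.97) rose too. The 17 calls were 8, 10 and 7 without replicate 2, 3 or 4 on 10% fat, and 7 and 8 without replicate 3 or 4 on 44% fat. In code series 76 alone none was called, with Mgp at 0.87 and Tgfbi at 1.59. Complement genes rose in 9 of 15 (median 0.70), with C3 at 20.5 to 53.7 CPM against 60.5 to 186 CPM, and 5 were called without replicate 4 on 44% fat. Chemokines, cytokines and NF-kB targets rose in 12 of 30 (median 1.44), in 6 each without replicate 1 or 2 on 10% fat, in 4 without replicate 4 on 10% fat and in 7 without replicate 4 on 44% fat. Spp1, which encodes osteopontin and is shared with duct cells and macrophages, was at 48.0, 69.4, 85.5 and 22.8 CPM against 175, 120, 332 and 236 CPM (1.93 ± 0.40 SE, adjusted p = 0.00108). Of 18 endothelial genes 1 rose. Of 12 mural cell genes 2 rose, with 4 called without replicate 2 on 10% fat and 1 without replicate 3 or 4 on 44% fat.

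Some trypsinogen genes were higher on 44% fat, while most other exocrine genes were not called. Prss3 (chr6:41373814-41377678) was at 7.81, 15.6, 4.30 and 4.36 CPM on 10% fat and at 113, 363, 1551 and 600 CPM on 44% fat (log2 change 6.36 ± 1.53 SE, adjusted p = 0.0044). Prss1 (chr6:41458932-41463786) was at 0.347, 0.325, 0.0983 and 0.0225 CPM against 6.86, 131, 693 and 207 CPM (10.35 ± 2.30 SE, adjusted p = 0.00227). Prss1 was under 1 CPM in every library on 10% fat, and all 4 libraries on 44% fat were above them. Gm5771 (8.83), Gm2663 (10.08), Gm10334 (8.39) and 1810009J06Rik (9.84), trypsinogen-like genes in the same stretch of chromosome 6, rose alike. Reads of these near-identical genes may be shared among them by the counting, so the value of a single member is uncertain. Of 31 acinar genes tested only Prss1 and Prss3 were called. Other trypsinogens of this chromosome were not called, with log2 differences of 0.87 for Prss2, 1.51 for Try4 and 1.25 for Try10 (adjusted p = 0.673, 0.434 and 0.504). Try5 was at 323, 1055, 282 and 223 CPM against 1163, 1881, 3905 and 3831 CPM (2.52 ± 1.29 SE, adjusted p = 0.184) and was not called either, though its groups did not overlap. Cpa1, a carboxypeptidase, was at 1905, 7207, 2023 and 1576 CPM against 4828, 3014, 4766 and 7983 CPM (0.70 ± 1.19 SE, adjusted p = 0.739). Pnlip, the pancreatic lipase, was at 3400, 13540, 3261 and 2471 CPM against 8538, 5426, 9014 and 14350 CPM (0.72 ± 1.22 SE, adjusted p = 0.736). The 10% library with acinar transcripts at 9.53% of counts had Prss3 at 15.6 CPM, and the 44% library with 3.92% had it at 363 CPM. In NZO/HlLtJ males acinar transcripts on 44% fat took 9.96, 15.5 and 20.8% of counts, and 9.51, 14.8 and 19.5% without Prss1 and Prss3. On 10% fat the male shares were 5.25, 4.90 and 6.49%, and 5.24, 4.89 and 6.38% without these 2 genes. Of the Reg family, acinar and islet stress proteins, Reg3g was called (4.35), though not without replicate 1, 3 or 4 on 10% fat or 2 or 4 on 44% fat (adjusted p 0.0616 to 0.0972). Of 19 duct genes 5 rose and 1 fell, and 2 rises were called without replicate 1 or 4 on 10% fat or 3 on 44% fat.

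Genes of glucose metabolism changed in both directions. Txnip, which is induced by glucose and binds thioredoxin, was at 235, 228, 287 and 139 CPM on 10% fat and at 224, 671, 506 and 945 CPM on 44% fat (1.40 ± 0.26 SE, adjusted p = 0.000329). Replicate 1 on 44% fat was within the 10% range and the others were above it. Of 15 targets of the glucose sensor ChREBP 5 rose and 1, the fructose kinase Khk, fell (-0.75). Arrdc4, a relative of Txnip, was at 17.3 to 24.1 CPM against 22.1, 61.1, 51.3 and 52.6 CPM (1.24 ± 0.25 SE, adjusted p = 0.000755). The 5 became 3 without replicate 2 on 10% fat. Of 20 glycolysis genes 6 fell and 1 rose. Eno2, the neuronal enolase, was at 73.4, 74.0, 81.9 and 72.2 CPM against 49.5, 48.2, 47.9 and 48.2 CPM (-0.64 ± 0.09 SE, adjusted p = 1.79e-05), and Pfkp, a phosphofructokinase, fell by 0.78. Of 19 hypoxia and VEGF family genes 4 fell and 1 rose, with Vegfa at 307 to 449 CPM against 175 to 277 CPM (-0.64 ± 0.14 SE, adjusted p = 0.00158) and Vegfb falling by 0.88. Of 35 nuclear genes of oxidative phosphorylation 3 rose and 2 fell. The rises were 5 without replicate 4 on 10% fat, and 6 and 1 without replicate 1 or 2 on 44% fat, and the falls were 1 without replicate 1, 2 or 4 on 10% fat or 2, 3 or 4 on 44% fat. Of 13 mitochondrially encoded transcripts none was called (median -0.18). Cytosolic ribosomal proteins were called higher in 7 of 41 (median 0.29), a count that was 3, 4 and 2 without replicate 1, 2 or 3 on 10% fat and 12, 2, 4 and 1 without replicates 1 to 4 on 44% fat. Ppargc1a, a coactivator of mitochondrial genes, was at 4.10 to 7.25 CPM against 1.2 to 3.78 CPM (-1.15 ± 0.29 SE, adjusted p = 0.00564). Counts for cholesterol synthesis (3 higher, 1 lower, of 25), fatty acid synthesis (2 and 2 of 22), fatty acid oxidation (1 and 1 of 27) and the clock (1 and 5 of 19) moved by up to 4 genes in either direction on leaving out 1 library. The 5 clock falls, a larger share than the 7.42% of all genes, were 1 without replicate 3 on 10% fat and 2 without replicate 2 or 3 on 44% fat. Of 19 antioxidant genes 2 rose and Nqo1, a quinone reductase, fell by 1.29 on the log2 scale (13.9, 13.3, 14.3 and 12.2 CPM against 9.21, 3.44, 3.73 and 5.50 CPM, adjusted p = 0.000359). Of 18 apoptosis and p53 target genes 2 rose and 1 fell. With library totals the list medians turned from above to below 0 for ChREBP targets (0.12 to -0.10), oxidative phosphorylation (0.09 to -0.12), cholesterol synthesis (0.17 to -0.04) and apoptosis (0.11 to -0.11).

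**Figure D3:**
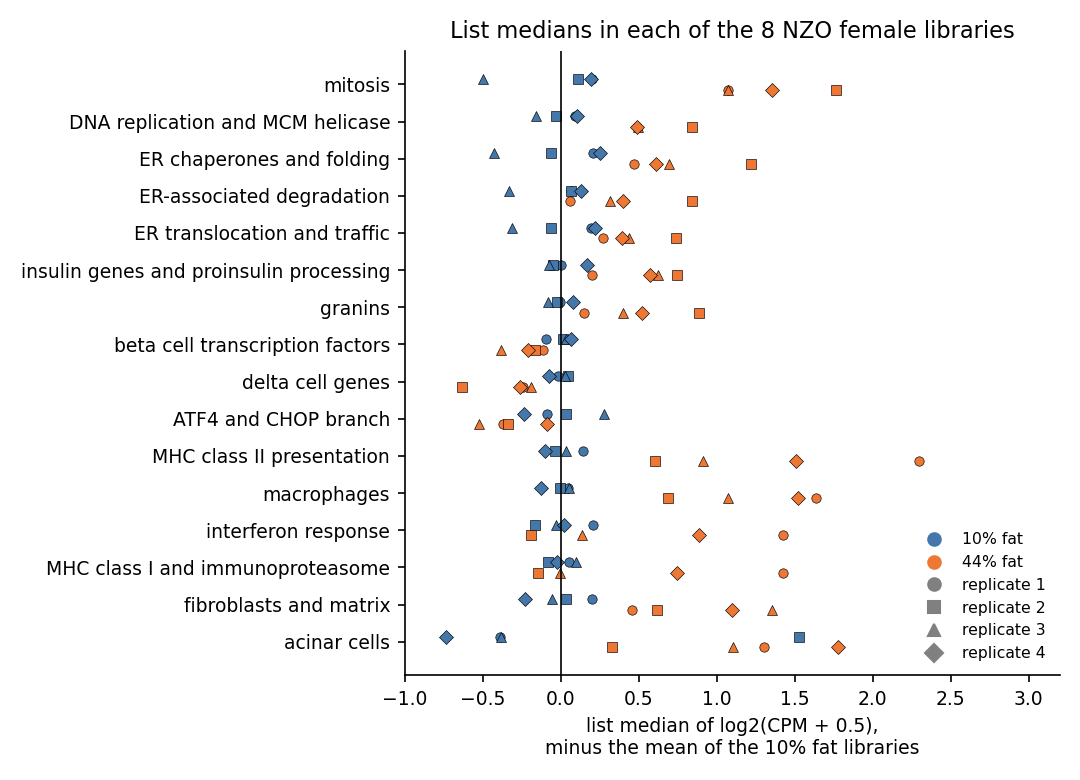
Median over the members of 16 lists of log2(CPM + 0.5) minus the mean of the 10% libraries, for each of the 8 libraries (blue: 10% fat; orange: 44% fat; shapes: replicates 1 to 4). For mitosis the 44% libraries are at 1.07 to 1.77, while for the interferon response replicate 3, at 0.14, lies within the 10% libraries and replicate 2, at -0.19, just below them.

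In NZO/HlLtJ males the same diets gave 3018 higher calls (14.9%) and 2926 lower calls (14.4%), from 3 libraries a diet. Of the genes called higher in females 726 were called higher in males, which is 42.91% of the female and 24.06% of the male list, and 59 were called lower. Of those lower in females 627 were lower in males (41.61% and 21.43%), and 57 were higher. Mitosis genes rose in both sexes, in 27 of 32 with a median of 1.2 in males, and none passed the test of a difference between the sexes. Macrophage genes rose in 24 of 25 in males (median 2.12) and MHC class II genes in 10 of 10 (2.21). ER chaperones did not: 2 fell and none rose in males (median -0.36), and insulin and proinsulin processing genes fell in 4 of 9 (median -0.52). In males acinar transcripts took 5.25, 4.90 and 6.49% of counts on 10% fat and 9.96, 15.5 and 20.8% on 44% fat. Their part in the male values and in the differences between the sexes was not tested.

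The difference between the sexes in the diet effect was tested as an interaction, in which 1881 genes passed (9.26%). NZO/HlLtJ male replicate 3 on 44% fat carried C57BL/6J marker transcripts at a median of 1.60% and CAST/EiJ markers at 1.26% of their level in those strains, and without it 276 genes passed. Without female replicate 2 on 44% fat 976 passed. Of the 9 insulin and processing genes 7 had a higher diet effect in females, 4 without that library. The log2 change of Ins1 was 0.61 in females and -1.0 in males, a difference of 1.61 (adjusted p = 0.000946, and 0.0057 without that library), and that of Pcsk1 was 0.68 against -0.83 (adjusted p = 0.000695 and 0.0079). Ucn3 changed by -0.38 in females and by -1.97 in males (adjusted p = 0.00418 and 0.024). Derl3 changed by 2.40 and -0.08 (adjusted p = 0.0042 and 0.035). Of 20 chaperones 15 had a higher effect in females, 3 without that library, and of 36 ER traffic genes 20, and 1 without it. For Aldh1a3 the effects were 1.72 and -0.27, a difference that was lost without that library (adjusted p = 0.0075 and 0.059). The smallest adjusted p of this interaction were those of Tenm4 (-0.60 in females, 1.00 in males), a teneurin, Gfod1 (0.09 and 2.22), Lonrf2 (-0.88 and 0.85), Srl (-0.09 and -2.11), Pfkp (-0.78 and 0.45), Dscam (-0.44 and 1.04), Itpr1, an ER calcium channel (-0.73 and 0.73), and Sema3e (-0.45 and 1.22). Males and females of NZO/HlLtJ differed in code series as well: series 80 held females on 10% and males on 44% fat, and series 89 the reverse, so series and the interaction are partly confounded.

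**Figure D4:**
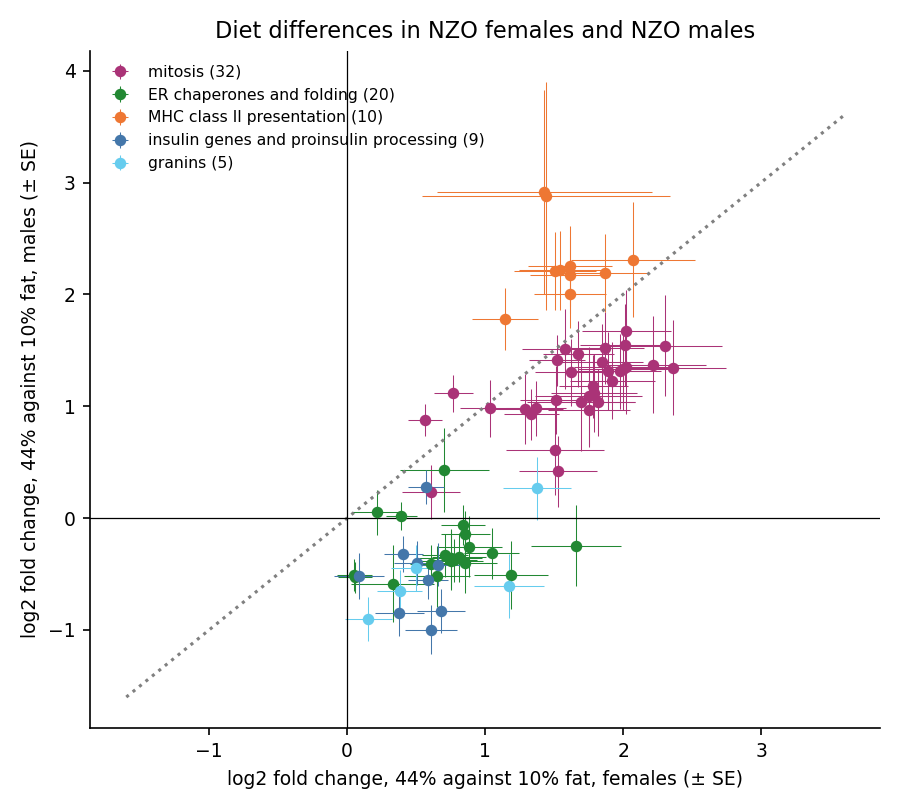
Log2 change on 44% fat in NZO/HlLtJ females (horizontal) and males (vertical) for members of 5 lists, with bars of 1 SE and a dotted line of equal change. Mitosis and MHC class II genes lie above 0 on both axes, while ER chaperones and insulin processing genes are mostly above 0 in females and below 0 in males.

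Against C57BL/6J females, 822 genes differed in their diet effect (4.05%). F13a1, a coagulation factor subunit also made by macrophages, had the smallest adjusted p, with log2 changes of 2.77 in NZO/HlLtJ and -0.48 in C57BL/6J females (adjusted p = 0.00077). F13a1 was at 14.9, 8.72, 9.64 and 13 CPM on 10% fat and at 33.8, 91.4, 87.8 and 102 CPM on 44% fat in NZO/HlLtJ. Tbc1d4, a regulator of glucose transporter traffic, changed by 1.01 against -0.20, Rrm2 by 1.42 against 0.00 and Eno2 by -0.64 against 0.13. Others with the smallest adjusted p were F5 (-0.95 in NZO/HlLtJ), Tmem25 (-1.03), Sept3 (-0.99) and Slc29a4 (-1.08). By list, 14 of 25 macrophage genes, 11 of 32 mitosis genes, 9 of 30 replication genes, 6 of 20 chaperones and 6 of 10 MHC class II genes had a higher effect in NZO/HlLtJ, and 6 of 15 alpha cell and 4 of 12 delta cell genes a lower one. Sst changed by -0.68 in NZO/HlLtJ and by 0.41 in C57BL/6J females (adjusted p of the difference 0.00821). The 822 became 1348 without NZO/HlLtJ replicate 1 on 44% fat and 531, 355 and 503 without replicate 2, 3 or 4 on 44% fat. They became 418 and 383 without NZO/HlLtJ replicate 2 or 3 on 10% fat. Among the C57BL/6J libraries, they became 348 and 493 without replicate 3 or 4 on 10% fat, and 478 and 455 without replicate 3 or 4 on 44% fat.

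Against CAST/EiJ females, 2163 genes differed (10.7%). Some of the libraries compared held transcripts of another strain. In CAST/EiJ female replicates 1, 2 and 4 on 44% fat, C57BL/6J markers were at a median of 10.2, 3.64 and 4.02% of their level in that strain. NZO/HlLtJ markers were at 5.563, 3.057 and 2.065% in the same libraries. In C57BL/6J female replicate 2 on 44% fat, NZO/HlLtJ markers were at 1.75%. Apart from these and NZO/HlLtJ male replicate 3 on 44% fat, every library was at 0.626% or less. Without these 5 libraries, 65 differed. That fit has 1 CAST/EiJ female library on 44% fat, assumed to vary like the other groups, so the loss of replicates and of those transcripts cannot be told apart. Leaving out CAST/EiJ replicate 1, 2 or 4 on 44% fat alone gave 1830, 1725 and 1505. The count was 1387 and 1305 without NZO/HlLtJ replicate 2 or 3 on 10% fat, 1371 without NZO/HlLtJ replicate 2 on 44% fat, 942 without CAST/EiJ replicate 4 on 10% fat and 1441 without CAST/EiJ replicate 3 on 44% fat. The genes with the smallest adjusted p (0.00098) included C1qa (1.49 in NZO/HlLtJ, -0.39 in CAST/EiJ), Ssr4 (1.03 and -0.41), Rrm2 (1.42 and -0.02) and Erc2, an active zone protein (-1.2 and 0.17). The others, Gm10175, Rpl19-ps11, Rpl9-ps6 and Gm12174, changed by 0.08 to 0.41 in NZO/HlLtJ and by 3.61 to 5.65 in CAST/EiJ females. These values include the CAST/EiJ libraries that held transcripts of other strains, and the part of such transcripts in them was not tested. Of the mitosis genes 20 of 32 had a higher effect in NZO/HlLtJ, of the chaperones 11 of 20, and of the replication genes 15 of 30.

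With code series as a factor in the model of all 45 libraries, 1589 genes were higher and 1379 lower. That model takes the effect of a series as equal in all groups. Within code series 76, with 2 libraries a diet, 288 genes were higher (1.42%) and 128 lower (0.63%). Mki67 changed by 2.18, Derl3 by 2.50 and Chgb by 1.38 there, close to their values over all 8 libraries. Together 416 genes were called. Leaving out 1 of these 4 libraries leaves 1 library on that diet, which is then assumed to vary like the other groups. The count was then 1 without replicate 2 on 10% fat, 66 without replicate 1 on 10% fat, 118 without replicate 2 on 44% fat and 934 without replicate 1 on 44% fat. Between the code series at 44% fat 0 genes were called (0%), with 892 at an unadjusted p under 0.05. At 10% fat 2 were called (0.00985%), with 1272 at an unadjusted p under 0.05. These were Btg3, an antiproliferative gene, at 9.76 and 18 CPM in series 76 and 36.9 and 41.8 CPM in series 80 (1.5, adjusted p = 7.99e-05), and Tra2b, a splicing factor, at 70.9 and 90.0 against 50.9 and 47.9 CPM (-0.70, adjusted p = 0.0129).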

How the data were processed

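Polyadenylated RNA of islets was sequenced in 45 libraries. The authors deposited estimated counts per gene that need not be whole (23.6% of values were not whole), which were rounded here. The submitters' processing notes name GRCm38 and DESeq2 without their roles, and which aligner and counter made the counts was not given in the sources used. A deposited matrix of transformed values was not used. Groups came from the labels. Genes were tested with edgeR 4.0.16 in R 4.3.3 (TMM factors, filterByExpr, robust glmQLFit, glmQLFTest, Benjamini-Hochberg over 20306 of 22904 genes), with limma 3.58.1 and DESeq2 1.42.0 installed beside it. Each SE of a log2 change is the absolute log2 change divided by the square root of the F statistic, and is not a spread of replicates. DESeq2 served as an alternative. Tables and plots used Python 3.11.15, pandas 2.3.3, numpy 2.4.6, scipy 1.17.1 and matplotlib 3.10.9. Gene positions are those of the deposited annotation. Near-identical, overlapping and antisense genes are uncertain, since strand use in counting is not stated. The 8 libraries held 71.5 to 110 M counts each.

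The members and the 51 gene lists (980 genes) were chosen with earlier results of these data known. Genes were named by rule: 20 islet genes, up to 4 called genes of each list by adjusted p, the 10 greatest rises and falls among genes with a mean of at least 1 CPM and no overlap, the 8 smallest adjusted p of each interaction, and other list members with their values. Some genes so chosen are not reported here. On simulated data for this comparison (20306 genes, 50 per fold), 58% of 1.5-fold and 80% of 2-fold rises were called, 66% and 88% of the matching falls, and 0.0398% of the 20106 unchanged genes. Far fewer genes changed there than the 15.8% called in the data, and no shift shared by the genes of a library was simulated. These rates therefore need not hold for the data.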

Additional observations from a re-analysis of the deposited data

Results flagged for a closer look

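Groups of 4 libraries were examined for a single library far from the others, where chance gives about 1 in 20 for independent groups. The groups were not independent, since some genes were chosen by their change and the acinar share entered in 2 forms. Of the 94 groups 15 held such a library, a count that cannot be weighed against that rate. On 10% fat these were Iapp (17274 CPM) and Sst (2542 CPM), both high in replicate 4, Aldh1a3, low in replicate 3 (24.3 CPM), Areg, high in replicate 3 (10.8 CPM), Fam196a, low in replicate 4 (1.63 CPM), and Pcp4, high in replicate 2 (9.78 CPM). The acinar share of counts was high in replicate 2 at 9.53%, with or without Prss1 and Prss3, and the mitochondrially encoded share was low in replicate 4 at 1.52%. On 44% fat Mki67 (60.7 CPM) and Ccnd1 (199.6 CPM) were high in replicate 2. Replicate 1 on 44% fat stood above its group, towards the 10% libraries, for Areg (1.37 CPM), Grid2ip (1.42 CPM), Mcoln3 (2.21 CPM) and Kcnj12 (5.67 CPM).

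Some named genes differed in their diet effect between groups of mice by edgeR's interaction test. The values are log2 differences, female NZO/HlLtJ minus the other group, and adjusted p was under 0.05 in each. Against NZO/HlLtJ males the difference was 1.61 for Ins1, 1.23 for Ins2, 0.91 for Iapp, 1.06 for Chga, 1.51 for Pcsk1, 1.59 for Ucn3, 1.18 for Slc2a2, 1.99 for Aldh1a3, 1.25 for Hspa5, 3.18 for Ros1 and -1.40 for Gcg.

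Against C57BL/6J females it was 1.34 for Chgb, 1.53 for Mki67, 3.67 for Ros1, 5.74 for Slc5a10, -1.17 for Gcg and -1.09 for Sst. In the trypsinogen stretch it was 9.64 for Gm2663, 8.26 for Gm5771, 9.02 for Gm10334 and 7.42 for Prss3. Among the genes with the greatest falls it was -3.40 for Grid2ip, -3.05 for Mcoln3, -2.56 for Gm43398, -3.29 for Olfr330, -2.05 for Pcp4 and -2.02 for Kcnj12.

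Against CAST/EiJ females it was 1.18 for Chgb, 1.49 for Aldh1a3, 1.06 for Hspa5, 1.48 for Mki67, 1.5 for Txnip, 4.65 for Ros1, 5.90 for Tm4sf20 and 5.59 for Slc5a10. For the trypsinogens it was 10.97 for Prss1, 10.69 for Gm2663, 10.00 for 1810009J06Rik, 12.48 for Gm5771, 8.89 for Gm10334 and 6.75 for Prss3. It was -5.61 for Areg, -3.03 for Grid2ip, -3.15 for Mcoln3, -2.64 for Chrna4, -2.71 for Fam196a, -2.40 for Gm43398, -2.79 for Olfr330, -2.21 for Pcp4, -3.29 for Gm27000 and -2.26 for Kcnj12. The size of these differences for genes near 0 CPM depends on the prior count of the fit.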

How the results depend on the processing

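The count of 3199 genes called for diet in females was 1205 with library totals, 1303 with the 14 NZO/HlLtJ libraries alone and 416 in code series 76, and 2108 to 3676 leaving out 1 library. RLE factors, no filter, a 1 CPM filter, DESeq2, code series as a factor and the 8 female libraries alone gave 2401 to 3871. The diet by sex count of 1881 was 193 with library totals, 2832 with code series as a factor, 205 without the 5 libraries that carried another strain's transcripts and 50 with NZO/HlLtJ libraries alone, and 276 to 2404 leaving out 1 library. The count of 822 against C57BL/6J females was 104 with library totals, 1587 with DESeq2 and 474 without the 5 libraries, and 348 to 1348 leaving out 1 library. The count of 2163 against CAST/EiJ females was 65 without the 5 libraries and 942 to 2921 leaving out 1 library. Between code series at 10% fat, 2 genes became 1 with library totals and 1 to 5 leaving out 1 library, and at 44% fat 0 became 0 to 8. The cause of these shifts was not tested. Of 197 genes chosen by rule and called in females, 76 lost the call with library totals, 130 in code series 76 and 9 to 41 leaving out 1 library, and none turned direction. Among uncalled genes, Chga turned to -0.065 and Xbp1 to -0.085 with library totals, Cpa1 to -0.216, Pnlip to -0.279 and Prss2 to -0.101 in code series 76, and Mafa to 0.32 in code series 76 and to 0.080 and 0.072 without replicate 4 on 10% or 44% fat, within -0.319 to 0.080 leaving out 1 library. No paired analysis was possible because the labels number no replicates across diets. In low genes, the depth limits what can be called.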
